A study of Mus musculus with 6 samples.

Results

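Regions of open chromatin around 10 genes of the canonical Wnt pathway were examined in neural stem cell cultures. The genes were *Axin2*, *Lef1*, *Tcf7*, *Tcf7l1*, *Tcf7l2*, *Nkd1*, *Lgr5*, *Ctnnb1*, *Wnt7a* and *Wnt7b*. A region belonged to a gene when it overlapped the gene body or the 50 kb on either side of it, in the GENCODE M21 annotation of mouse build GRCm38. Peaks of the 6 libraries that overlapped by 1 bp or more were merged into 120143 regions, and 174 of these lay in the windows of the 10 genes.

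The assay was ATAC-seq, where a transposase inserts adapters into DNA that is not packed by nucleosomes. The cultures came from the subependymal zone (SEZ), a neurogenic niche of the adult mouse brain, of C57BL/6J mice aged 10 weeks. All libraries carried the *Srr2* del/del genotype, a CRISPR-Cas9 deletion of an enhancer downstream of *Sox2*, so both states share it. Proliferating cultures (PROLIF) had 2 days in vitro on Matrigel with FGF, although the series text gives 3 days for them. Early differentiating cultures (DIFF) had 1 further day without mitogens and with serum. Each state had 3 libraries, replicates 1, 2 and 4, and libraries of wild-type cells are not analysed here. The labels do not say whether replicates came from separate mice, so p-values measure the spread between these libraries.

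In canonical Wnt signalling, a secreted ligand such as Wnt7a or Wnt7b keeps β-catenin, the product of *Ctnnb1*, from being degraded. β-catenin then enters the nucleus and acts with factors of the TCF/LEF family, encoded by *Lef1*, *Tcf7*, *Tcf7l1* and *Tcf7l2*, at DNA that holds their motif. *Axin2* and *Nkd1* are induced targets that feed back to dampen the signal, and *Lgr5* encodes a receptor for R-spondins that marks stem cells in several tissues. In the adult brain this pathway is known to act on the proliferation and differentiation of neural stem cells.

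The sequences below come from the 5 regions whose difference between the states passed under all 11 alternatives to the fit. Also shown are 3 of the 5 regions found in one state only. In capitals are matches to TCF/LEF (CTTTGAA or CTTTGAT), SOX (ACAAAG or ACAATG), AP-1 (TGACTCA or TGAGTCA), NFI (TTGGCA) or E-box (CAGATG or CAGCTG) letters on either strand. Each is 201 bases of the GRCm38 plus strand, centred on the summit of the peak with the highest rank in that region. The first pair rose in DIFF, at *Tcf7l2* and *Tcf7l1*.
*Tcf7l2*, chr19:55924134-55924334: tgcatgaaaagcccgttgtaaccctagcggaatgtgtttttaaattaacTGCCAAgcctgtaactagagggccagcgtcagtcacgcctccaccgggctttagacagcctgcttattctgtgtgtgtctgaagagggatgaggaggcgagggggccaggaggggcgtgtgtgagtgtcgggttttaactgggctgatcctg
*Tcf7l1*, chr6:72653556-72653756: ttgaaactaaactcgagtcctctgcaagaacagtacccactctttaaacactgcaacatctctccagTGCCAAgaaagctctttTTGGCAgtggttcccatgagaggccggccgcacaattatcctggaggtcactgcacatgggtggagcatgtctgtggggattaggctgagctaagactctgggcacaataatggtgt
The next 3 fell in DIFF, at *Tcf7l2*, *Tcf7l1* and *Wnt7a*.
*Tcf7l2*, chr19:55969981-55970181: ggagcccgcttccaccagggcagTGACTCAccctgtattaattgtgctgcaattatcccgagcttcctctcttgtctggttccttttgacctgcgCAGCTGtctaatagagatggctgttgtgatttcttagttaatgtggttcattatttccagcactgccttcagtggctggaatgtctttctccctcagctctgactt
*Tcf7l1*, chr6:72748407-72748607: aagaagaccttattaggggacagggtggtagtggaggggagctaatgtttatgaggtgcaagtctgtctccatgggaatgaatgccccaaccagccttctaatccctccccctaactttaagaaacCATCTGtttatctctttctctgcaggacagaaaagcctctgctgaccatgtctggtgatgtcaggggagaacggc
*Wnt7a*, chr6:91347807-91348007: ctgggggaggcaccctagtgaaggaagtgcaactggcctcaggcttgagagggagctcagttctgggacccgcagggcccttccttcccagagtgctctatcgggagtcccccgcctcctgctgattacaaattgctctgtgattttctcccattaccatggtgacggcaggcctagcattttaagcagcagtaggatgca
The last 3 held peaks in every library of one state and in none of the other, the first pair in DIFF and the last in PROLIF.
*Tcf7l2*, chr19:55941027-55941227: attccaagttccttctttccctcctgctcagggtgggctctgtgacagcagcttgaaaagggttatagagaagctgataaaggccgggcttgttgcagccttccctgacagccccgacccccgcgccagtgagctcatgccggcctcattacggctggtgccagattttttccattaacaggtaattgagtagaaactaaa
*Tcf7l1*, chr6:72667174-72667374: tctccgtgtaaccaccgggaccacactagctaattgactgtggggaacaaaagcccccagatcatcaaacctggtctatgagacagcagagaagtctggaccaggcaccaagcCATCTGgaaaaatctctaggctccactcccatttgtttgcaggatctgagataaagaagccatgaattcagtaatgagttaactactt
*Lef1*, chr3:131139215-131139415: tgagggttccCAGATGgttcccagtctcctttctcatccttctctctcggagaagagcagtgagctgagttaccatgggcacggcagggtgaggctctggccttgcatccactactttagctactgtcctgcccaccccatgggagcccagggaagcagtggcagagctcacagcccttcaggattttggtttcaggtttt

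None of these 8 windows held the TCF/LEF letters or the SOX letters. Over all regions on assembled chromosomes, 6.63% of 119719 windows of this length held a TCF/LEF match and 29.2% a SOX match. Of the 174 regions around the 10 genes, 15 held a TCF/LEF match (8.62%) and 56 a SOX match (32.2%). The 15 lay around *Nkd1* (5 of 22 regions), *Axin2* (3 of 16), *Lef1* (3 of 16), *Lgr5* (2 of 16), *Tcf7l1* (1 of 32) and *Tcf7* (1 of 9), and none around *Tcf7l2*, *Ctnnb1*, *Wnt7a* or *Wnt7b*. AP-1 letters were in 10 of the 174 regions (5.75%, against 5.76% of all regions), NFI letters in 28 (16.1% against 18.3%) and E-box letters in 61 (35.1% against 33.4%). A match describes the letters only.

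Among the 64 regions with a peak in all 6 libraries, 7 held a TCF/LEF match (10.9%), and 4 of them lay around *Nkd1*. Over all such regions on assembled chromosomes, 5.45% of 40102 held one. The matches are shown in capitals with 10 bases on each side. TCF/LEF factors recognise these letters, but binding was not measured here.
*Nkd1*, chr8:88495310-88495336: ggccttcatgTTCAAAGgccagcaaga
*Nkd1*, chr8:88495363-88495389: aacagggcggCTTTGATccgagtgtgg
*Nkd1*, chr8:88512437-88512463: agaagcccagATCAAAGgcagcacccc
*Nkd1*, chr8:88521261-88521287: tccgcctcgcCTTTGATgggccgctgc
*Nkd1*, chr8:88604145-88604171: aggccaggacCTTTGAAgtctgcctgg
*Lgr5*, chr10:115571562-115571588: ttaattaagaATCAAAGcacacaaccc
*Tcf7*, chr11:52283358-52283384: gggtcggaacATCAAAGgcaccgcggg
*Axin2*, chr11:108920417-108920443: gccggctgcgCTTTGATaaggtcctgg
The *Axin2* match lay in the region over its start site, 73 bp from the summit. The *Tcf7* match lay in its start site region, and so did the *Nkd1* match at chr8:88521261-88521287. None of these 7 regions passed the test between states described below, with adjusted p from limma between 0.0839 for the *Lgr5* region and 0.883 for the *Nkd1* region downstream of the gene.

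The libraries held 60006 to 82741 peaks in PROLIF and 70728 to 88039 in DIFF. The local background pileup, a stand-in for depth, was solved from the caller's values at each peak. Its 1st percentile over the peaks of a library was 2.85 to 3.63 reads in 5 libraries and 6.01 reads in DIFF replicate 4. Peak names carry input data numbers in a lower range (PROLIF replicates 1 and 4, DIFF replicate 1) and a higher range (PROLIF replicate 2, DIFF replicates 2 and 4), so differences are also given within each range. The neural stem and progenitor markers *Sox2*, *Nes*, *Sox9*, *Fabp7*, *Egfr* and *Olig2* each had a promoter peak in every library. No promoter peak was found in any library at *Cldn5* and *Cdh5* of endothelium, *Cx3cr1* of microglia, *Dcx* of young neurons, *Sox10* of oligodendroglia or the 4 T cell markers *Cd3e*, *Cd4*, *Cd8a* and *Ptprc*. Of 32 marker genes 17 had a promoter region that could be tested, and the strongest such region of each was compared. Of these 17, 2 changed, where 7.68% of all regions within 3 kb of a start site did. The regions of *Nes* and *P2ry12* were lower in DIFF by 0.73 and 0.69 on the log2 scale (limma adjusted p = 0.0158 and 0.00902). A further promoter region of *Egfr* was also lower in DIFF. *P2ry12* marks microglia, and *Pecam1*, of endothelium, had a promoter peak in all 3 PROLIF and no DIFF library. The part of such cells in the results was not tested. In the window 3 to 5 kb downstream of the *Sox2* start, which stands in for the deleted enhancer, a peak was called in DIFF replicate 4 only. The deleted sequence is much shorter than this window, so these calls do not test the genotype.

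To ask whether the Wnt gene windows were open to a different extent in the 2 states, their peaks were counted in each library. PROLIF replicates 1, 2 and 4 had 127, 99 and 89 peaks in the 10 windows, and DIFF replicates 1, 2 and 4 had 111, 104 and 126. The states overlapped, with 105 ± 19.7 peaks in PROLIF and 114 ± 11.2 in DIFF (SD, n = 3, two-sided exact permutation p = 0.6, where the smallest possible is 0.1). DIFF held 3 more peaks among the lower input numbers and 16 more among the higher ones. Without PROLIF replicate 1 the difference rose from 8.67 to 19.7 peaks, and without PROLIF replicate 4 it was 0.667. Without DIFF replicate 4 it was 2.50 and without DIFF replicate 2 it was 13.5. As a share of each list these were 0.153, 0.149 and 0.148 per 100 peaks in PROLIF and 0.156, 0.147 and 0.143 per 100 in DIFF (exact permutation p = 0.8).

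The rank of these peaks moved with the length of the lists. By −log10 p, where percentile 100 is the strongest peak of a library, their median was 44.7, 46.8 and 48.5 in PROLIF replicates 1, 2 and 4 and 51.5, 55.8 and 50.2 in DIFF replicates 1, 2 and 4. With every list cut to its strongest 60006 peaks, the length of the shortest, these medians were 53.4, 51.2 and 48.5 in PROLIF and 48.4, 55.1 and 50.0 in DIFF. The difference was then 0.12 (two-sided exact permutation p = 1, n = 3), and the states overlapped. Percentiles below are ranks in the full lists and are given as descriptions.

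Of the 174 regions, 64 had a peak in all 6 libraries (36.8%, against 33.4% of all regions) and 49 in a single library (28.2% against 29.7%). Only 2 were PROLIF-only, with a peak in every PROLIF and no DIFF library (1.15%, against 1.78% of all regions), and 3 were DIFF-only (1.72% against 3.47%). Another 56 regions had peaks in 2 to 5 libraries in other combinations. More PROLIF than DIFF libraries held a peak at 43 regions, more DIFF libraries at 57, and equal numbers at 74. Over all 120143 regions these counts were 30166, 41792 and 48185, so more DIFF libraries was also the commoner case there. A PROLIF-only region occurred in the windows of 2 of the 10 genes, against 11.9% of protein-coding genes, and a DIFF-only region in those of 3, against 24.1%. A missing peak means that the signal stayed under the caller's threshold, not that the chromatin was closed. With same-numbered libraries as pairs, a region lost or gained in at least 2 of 3 pairs and changed the other way in none gave 14 PROLIF-only and 17 DIFF-only regions of the 174, where 6.29% and 11.1% of all regions met this looser rule. Without PROLIF replicate 4 there were 6 PROLIF-only regions, and 4 without PROLIF replicate 2 or DIFF replicates 2 or 4. DIFF-only regions numbered 8 without PROLIF replicate 1 and 9 without DIFF replicate 1.

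**Figure D1:**
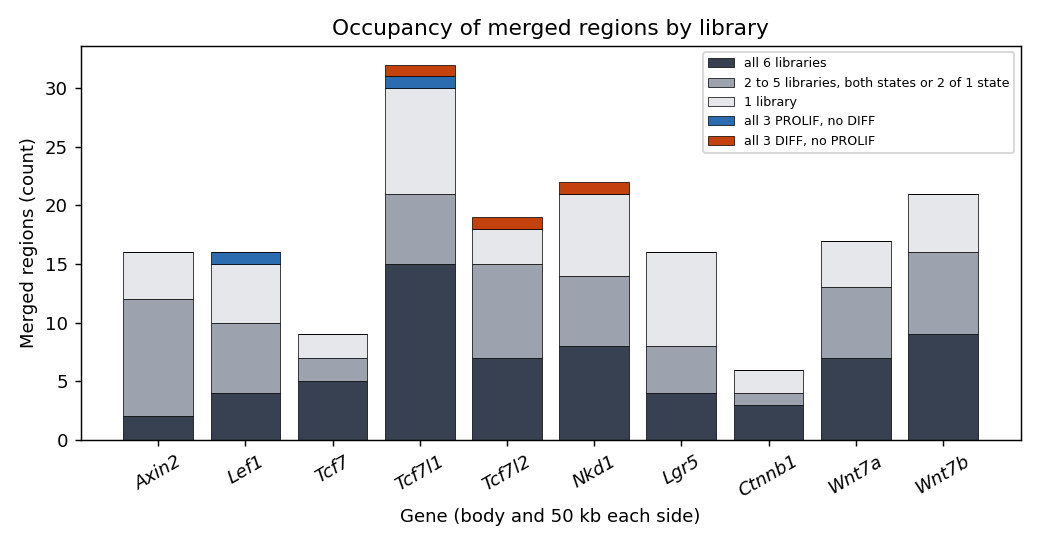
Merged regions (count) in the window of each gene, stacked by the libraries in which a peak was called. *Tcf7l1* had the most regions, with 15 of 32 in all 6 libraries, and *Ctnnb1* the fewest, with 3 of 6, while the 5 state-only regions lay at *Lef1*, *Tcf7l1*, *Tcf7l2* and *Nkd1*.

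The windows differed in how densely they were open. Regions in all 6 libraries numbered 6.12 per 100 kb around *Wnt7b*, 5.71 around *Tcf7l1*, 4.75 around *Wnt7a* and 4.61 around *Nkd1*, where the median over protein-coding genes was 2.61. They numbered 3.83 around *Tcf7*, 2.40 around *Tcf7l2*, 2.28 around *Ctnnb1*, 1.87 around *Lef1*, 1.68 around *Lgr5* and 1.53 around *Axin2*. *Axin2* thus had the sparsest window, with 2 of its 16 regions in all libraries. The choice of 50 kb sets these numbers, since 2 of the 20 window edges, at *Tcf7* and *Lgr5*, were each crossed by a region and the nearest region outside, at *Wnt7b*, was 1917 bp away.

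All 10 genes had a promoter peak, within 3 kb of an annotated start site, in every library, against 64.4% of protein-coding genes. The 10 genes still did so when the promoter was narrowed to 1 kb. Among the strongest 20000 peaks of each library 5 of them did.

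**Figure D2:**
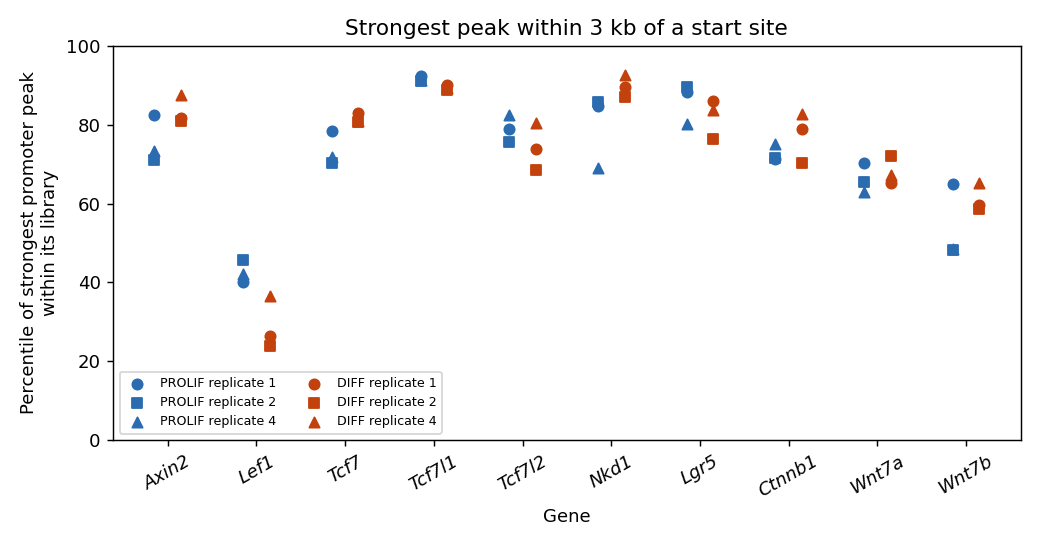
Percentile, within its own library, of the strongest peak within 3 kb of a start site of each gene (y axis), for the 3 PROLIF (blue) and 3 DIFF (orange) libraries, with a marker shape for each replicate. *Tcf7l1* never ranked below 88.9, the highest such minimum, and *Lef1* was lowest, from 23.8 to 45.7. The strongest peak of a gene can lie in different regions between libraries, as at *Lef1* and, by fold enrichment, at *Tcf7l2*.

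The promoters of the TCF/LEF factors covered the widest range of strengths. *Tcf7l1*, whose product acts largely as a repressor of Wnt targets, had promoter peaks between percentiles 88.9 and 92.5. *Tcf7*, which encodes TCF1, ranked between 70.4 and 83.0 and *Tcf7l2*, which encodes TCF4, between 68.4 and 82.4. The *Tcf7l2* percentiles are the highest over all its start sites and can mix regions. By fold enrichment, its strongest promoter peak lay at an internal start site, 154 kb in, in PROLIF replicates 1 and 2 and DIFF replicates 2 and 4. In PROLIF replicate 4 and DIFF replicate 1 it lay at the 5′ end. *Lef1*, which encodes a factor that mostly activates targets, ranked between 40.0 and 45.7 in PROLIF and between 23.8 and 36.5 in DIFF. These *Lef1* values come from different regions, since the strongest promoter peak of PROLIF replicates 1 and 2 lay at 0.708 kb and that of the other libraries at 1.74 kb from the 5′ end. At the latter region, shared by all 6 libraries, percentiles were 33.1, 16.5 and 42.2 in PROLIF and 26.3, 23.8 and 36.5 in DIFF and overlapped.

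Promoter peaks of the feedback targets *Axin2* and *Nkd1* lay between percentiles 71.1 and 87.6 and between 69.0 and 92.6. *Lgr5* ranked between 76.3 and 89.5 and *Ctnnb1* between 70.2 and 82.7. The ligand genes were lower, *Wnt7a* between 62.9 and 72.0 and *Wnt7b* between 48.2 and 65.3.

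To ask whether accessibility at regions open in both states differed in size, fold enrichment over the local background was tested with limma over the 40164 regions with a peak in all 6 libraries. Of these, 5.91% were higher and 7.71% lower in DIFF at an adjusted p under 0.05. Among the 64 regions around the Wnt genes, 6 were higher (9.38%) and 8 lower (12.5%). The fold enrichments of the states overlapped at 46 of the 64, with DIFF below PROLIF at 10 and above it at 8, and they did not overlap at 21.5% of all shared regions. The median log2 difference was 0.03 both over the 64 regions and over all those tested. Away from start sites, by over 3 kb, 12 of 41 regions passed (29.3%, against 18.9% of all such regions), and within 3 kb 2 of 23 did (8.70% against 7.68%). Without PROLIF replicate 1 or DIFF replicate 1 there were 3 higher regions, and 2 without DIFF replicate 4. Without PROLIF replicates 1 or 2 or DIFF replicate 2 there were 3 lower regions, 5 without DIFF replicate 1 and 4 without DIFF replicate 4. The 14 regions lay around 7 of the genes. None lay around *Lef1*, *Tcf7* or *Lgr5*, with 4, 5 and 4 regions tested.

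**Figure D3:**
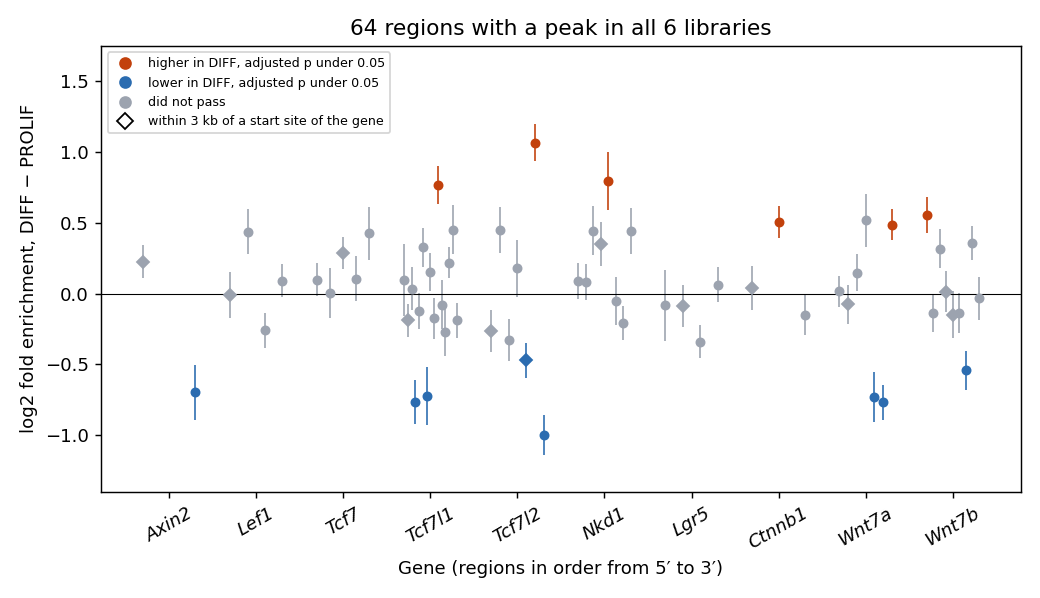
Log2 fold enrichment, DIFF minus PROLIF, of the 64 regions with a peak in all 6 libraries (points, with the standard error as bars), ordered from 5′ to 3′ in each gene's window, with diamonds for regions within 3 kb of a start site of the gene. The values run from -1.0 to 1.07, both at *Tcf7l2*, and 1 of the diamonds passed the test, at an internal start site of *Tcf7l2*.

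At the promoters, the strongest shared region of each gene was compared. None of these 10 regions passed, and their log2 differences lay between -0.26 for *Tcf7l2* and 0.35 for *Nkd1*. For *Tcf7l2* the log2 difference was -0.26 ± 0.15 (standard error, limma adjusted p = 0.299), although its fold enrichment was lower in every DIFF library, at 6.12, 6.61 and 7.03 against 8.48, 7.74 and 8.68. It was 0.35 ± 0.15 for *Nkd1* (adjusted p = 0.171), 0.28 ± 0.11 for *Tcf7* (adjusted p = 0.135) and 0.23 ± 0.12 for *Axin2* (adjusted p = 0.247). The other 6 promoters, of *Lef1*, *Tcf7l1*, *Lgr5*, *Ctnnb1*, *Wnt7a* and *Wnt7b*, differed by -0.19 to 0.04.

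**Figure D4:**
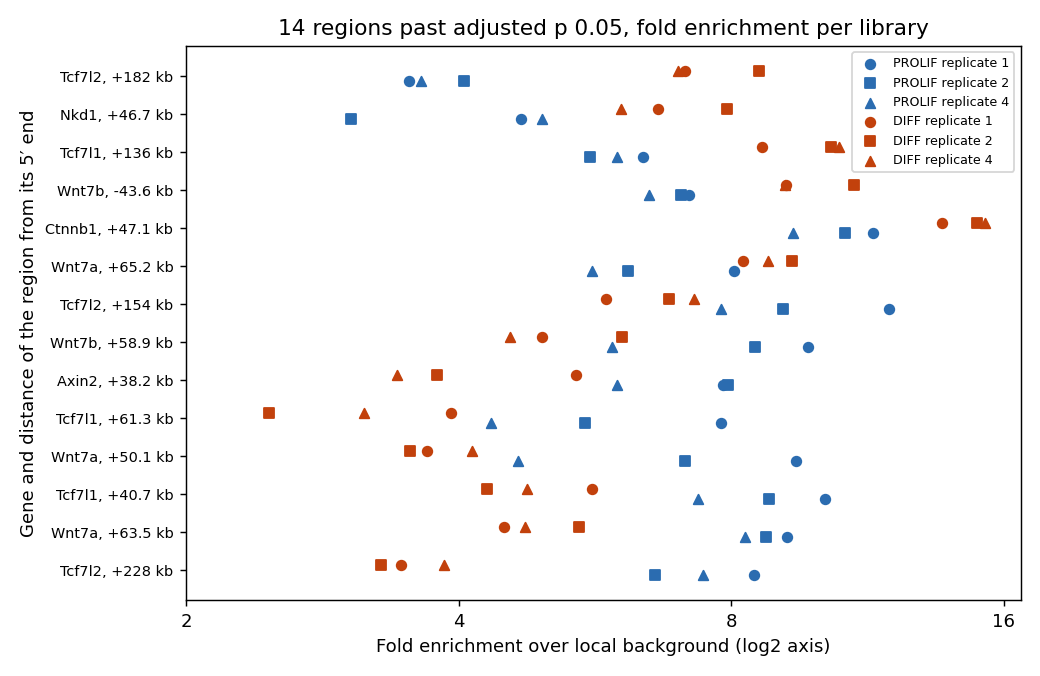
Fold enrichment over local background (x axis, log2 scale) in each library at the 14 regions that passed, named by gene and by the distance of the summit from its 5′ end, with PROLIF libraries in blue and DIFF libraries in orange. The states overlap at *Wnt7b* +58.9 kb and separate at the others, which were chosen for their difference.

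The largest differences in both directions lay at the 3′ end of *Tcf7l2*, or ENSMUSG00000024985.19, which spans chr19:55741820-55933654 on the plus strand. The region at chr19:55923985-55924359, 182 kb from the 5′ end, lies in an exon without coding or UTR annotation there. Its fold enrichment was 3.53, 4.06 and 3.64 in PROLIF replicates 1, 2 and 4 and 7.12, 8.59 and 6.99 in DIFF replicates 1, 2 and 4. Every DIFF library was thus above every PROLIF library. The difference was 1.07 ± 0.13 on the log2 scale (standard error, limma adjusted p = 0.00138), and 1.18 and 0.90 within the lower and higher input numbers.

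The region at chr19:55969833-55970527, intergenic and 36.4 kb beyond the 3′ end, went the other way. It had 8.48, 6.60 and 7.45 in PROLIF and 3.45, 3.29 and 3.85 in DIFF, again without overlap. The log2 difference was -1.0 ± 0.14 (limma adjusted p = 0.00269), with -1.04 and -0.88 within the input number ranges. Its window holds AP-1 letters at base 24 and E-box letters at base 96 of the sequence printed above.

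Between these regions, chr19:55940774-55941702, 7.47 kb beyond the 3′ end of *Tcf7l2*, was DIFF-only. No PROLIF library had a peak there, while DIFF replicates 1, 2 and 4 had fold enrichments of 5.39, 10.4 and 8.41 and percentiles of 52.8, 73.7 and 76.4. It stayed DIFF-only with q under 0.01 and with lists of equal length, and lost this among the strongest 20000 peaks. The other alternatives, the flanks and a left-out library, leave its pattern in place by construction. A further region at an internal start site, chr19:55895405-55896233, fell from 11.9, 9.14 and 7.80 to 5.83, 6.82 and 7.27. Its log2 difference was -0.47 ± 0.12 (limma adjusted p = 0.0347). With same-numbered libraries as pairs the adjusted p was 0.0515, with the input range as a term it was 0.0556, and leaving out any 1 of the 6 libraries gave 0.0507 to 0.118. A region 38.3 kb into the gene, at 0.45 ± 0.16 with an adjusted p of 0.108, had one of 0.0477 with the pairs.

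**Figure D5:**
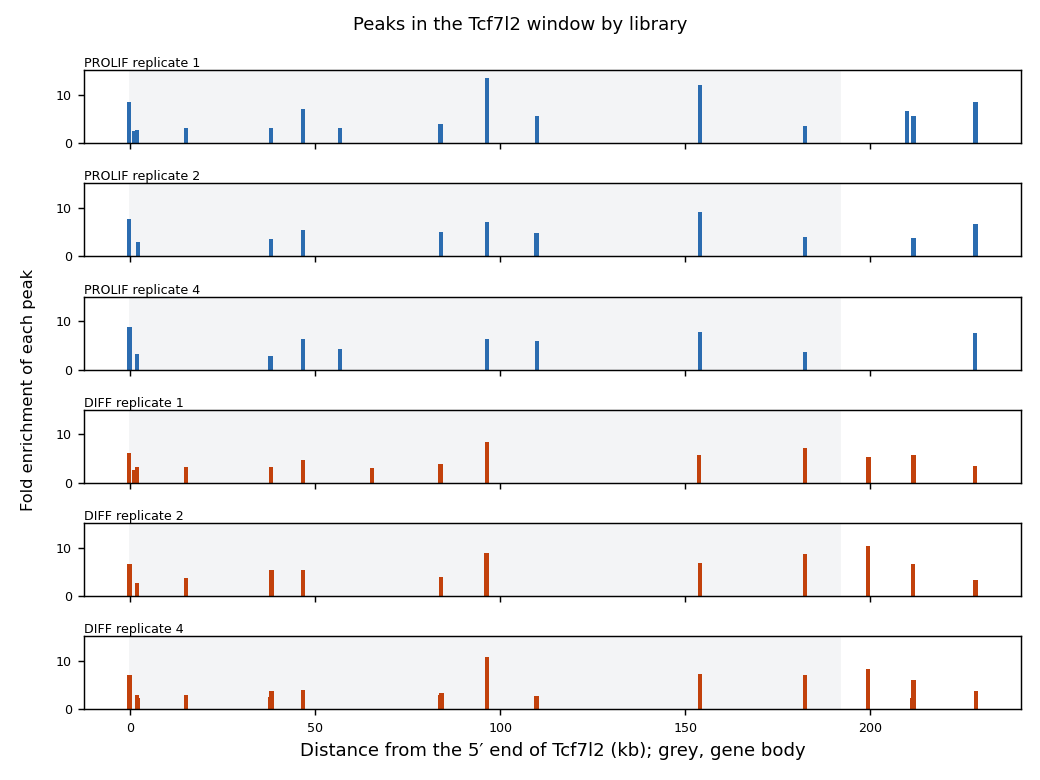
Fold enrichment of each peak (y axis) against distance from the 5′ end of *Tcf7l2* (kb), in a panel for each library, with the gene body in grey and bars widened to at least 1.2 kb. A peak near 199 kb is seen in the DIFF panels only, the bar near 182 kb is higher in DIFF, and the bar near 228 kb is higher in PROLIF.

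*Tcf7l1* (ENSMUSG00000055799.13, chr6:72626378-72789254, minus strand) had the most regions tested, 15, and 3 of them differed, all in introns. The strongest in its window was the promoter of the neighbouring *Tgoln1*, at percentiles 92.9 to 97.6, which did not pass (limma adjusted p = 0.243). The region at chr6:72653307-72653886, 987 bp from the start site of the non-coding *Gm38320*, had fold enrichments of 6.39, 5.58 and 5.98 in PROLIF and 8.66, 10.3 and 10.5 in DIFF. The states did not overlap, and it rose by 0.77 ± 0.13 (limma adjusted p = 0.00593). The region at chr6:72748344-72748888 had 10.2, 8.80 and 7.35 in PROLIF and 5.61, 4.30 and 4.76 in DIFF, and its log2 difference was -0.76 ± 0.15 (limma adjusted p = 0.0122). Within the lower and higher input numbers this was -0.44 and -0.97. Both regions passed under all 11 alternatives. The third, chr6:72727831-72728178, had 7.80, 5.52 and 4.35 against 3.92, 2.47 and 3.15 and a difference of -0.72 ± 0.20 (limma adjusted p = 0.0457). It passed under 4 of 11 alternatives, and failed with the input range as a term (adjusted p = 0.0866), on the −log10 p scale (0.0825) and without PROLIF replicates 1, 2 or 4 or DIFF replicates 2 or 4 (0.0507 to 0.141).

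Introns of *Tcf7l1* also held state-only regions of both kinds. At chr6:72667134-72667515 the DIFF libraries had fold enrichments of 3.92, 9.40 and 8.94 and percentiles of 31.6, 74.8 and 79.5, with no PROLIF peak. At chr6:72714836-72715113 the PROLIF libraries had 3.71, 2.42 and 4.06, with percentiles of 48.5, 5.82 and 44.7, and no DIFF peak. Both stayed state-only with q under 0.01, and both lost this among the strongest 20000 peaks. With lists of equal length the first kept its pattern and the second lost it. The flanks and a left-out library leave both patterns in place by construction.

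The *Lef1* window (ENSMUSG00000027985.14, chr3:131110471-131224356, plus strand) held more peaks in PROLIF. PROLIF replicates 1, 2 and 4 had 10, 12 and 12 peaks in it and DIFF replicates 1, 2 and 4 had 8, 7 and 9. The counts did not overlap for this 1 of the 10 genes, and over protein-coding genes 9.46% had counts without overlap in either direction, so 1 of 10 is near the background. In the direction seen at *Lef1*, 1.52% of genes did. At 8 of its 16 regions more PROLIF than DIFF libraries held a peak, and at 4 more DIFF libraries did. Over all 120143 regions, these were 30166 and 41792.

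Of these 8 *Lef1* regions, 3 lay within 5 kb of its 5′ end and 5 farther away. One 4.33 kb upstream of the 5′ end and those 0.02 and 0.708 kb downstream of it had peaks in all PROLIF libraries and in 1 DIFF library. The DIFF peak had fold enrichments of 5.14 and 3.21 at the first pair, above each PROLIF value there. It had 3.81 at the third, within the PROLIF values. All PROLIF and at most 1 DIFF library held a peak at 4 of the 16 *Lef1* regions and 7 of the 174, against 3.38% of all regions. The intronic region at chr3:131139242-131139453, 28.8 kb in, was PROLIF-only, with fold enrichments of 3.89, 3.55 and 4.68 and percentiles of 24.7, 14.3 and 35.5. These were weak peaks, and the last lost its state-only pattern with lists of equal length and among the strongest 20000 peaks. The promoter region open in all 6 libraries did not differ beyond its error, with a log2 difference of -0.01 ± 0.17 (limma adjusted p = 0.978). The strongest region in the window was the promoter of the neighbouring *Hadh*, at percentiles 87.1 to 94.7.

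*Tcf7* (ENSMUSG00000000782.15, chr11:52252371-52283014, minus strand) had 5 regions tested and none passed, with log2 differences from 0.01 to 0.43. Its strongest region away from the start site lay at chr11:52332826-52334008, at the window's edge and nearest to the *Vdac1* start site, with percentiles of 66.6 to 80.6.

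The ligand genes *Wnt7a* and *Wnt7b*, which encode closely related Wnt proteins active in the nervous system, each had regions that rose and fell. Downstream of *Wnt7a* (ENSMUSG00000030093.7, chr6:91363981-91411363, minus strand), neighbouring intergenic regions moved in opposite directions. The region at chr6:91347626-91348308, 16.1 kb beyond the 3′ end, had fold enrichments of 9.21, 8.75 and 8.28 in PROLIF and 4.49, 5.44 and 4.74 in DIFF. It fell by 0.77 on the log2 scale (standard error 0.12, limma adjusted p = 0.00417), and the difference was -0.78 and -0.80 within the input ranges. It passed under all 11 alternatives.

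The region at chr6:91345953-91346987, less than 1 kb from it, had 8.05, 6.16 and 5.62 in PROLIF and 8.25, 9.34 and 8.79 in DIFF. It rose by 0.49 ± 0.11 (limma adjusted p = 0.0182) and passed under 7 of 11 alternatives, failing without PROLIF replicates 2 or 4 or DIFF replicates 1 or 4 (adjusted p 0.0540 to 0.0702). Nearer the gene, chr6:91361080-91361540 had 9.43, 7.11 and 4.65 against 3.70, 3.54 and 4.14, a difference of -0.73 ± 0.18 (limma adjusted p = 0.0255). It failed without PROLIF replicates 1 or 2 or DIFF replicates 1 or 2 (0.0669 to 0.10).

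Around *Wnt7b* (ENSMUSG00000022382.15, chr15:85535437-85582473, minus strand), the intergenic region at chr15:85625657-85626499, 43.6 kb upstream, had fold enrichments of 7.18, 7.05 and 6.48 in PROLIF and 9.19, 10.9 and 9.17 in DIFF. It rose by 0.55 ± 0.13 (limma adjusted p = 0.0192), and failed without PROLIF replicate 1 or without DIFF replicates 1, 2 or 4 (0.0502 to 0.0624). The region at chr15:85523292-85523984, 11.9 kb beyond the 3′ end, had 9.72, 8.51 and 5.91 against 4.94, 6.06 and 4.56. Here the states overlapped, since DIFF replicate 2 exceeded PROLIF replicate 4. Its difference was -0.54 ± 0.14 (limma adjusted p = 0.0310), and it failed without PROLIF replicates 1 or 2 or any 1 DIFF library (0.0626 to 0.121). The strongest region away from the start site was intronic, chr15:85555553-85556332, at percentiles 77.3 to 87.0 and a difference of -0.14 ± 0.14 (adjusted p = 0.597).

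Near *Ctnnb1* (ENSMUSG00000006932.17, chr9:120929216-120960507, plus strand), a region in an intron of the neighbouring *Ulk4*, chr9:120976081-120976641, was among the most accessible that differed. It had fold enrichments of 11.5, 10.7 and 9.36 in PROLIF and 13.7, 14.9 and 15.2 in DIFF, without overlap. It rose by 0.51 ± 0.12 (limma adjusted p = 0.0198), and failed without PROLIF replicates 1 or 4 or DIFF replicates 1 or 4 (0.0506 to 0.0793). Another *Ulk4* region, chr9:121000773-121001648, was the strongest away from the start site, at percentiles 81.2 to 94.3, with a difference of -0.15 ± 0.15 (adjusted p = 0.575).

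Of the feedback targets, *Nkd1*, which encodes an inhibitor that binds Dishevelled (ENSMUSG00000031661.12, chr8:88521354-88594884, plus strand), had 8 regions tested and 1 passed. The intronic region at chr8:88567797-88568239 had fold enrichments of 4.69, 3.05 and 4.94 in PROLIF and 6.64, 7.92 and 6.04 in DIFF. It rose by 0.80 ± 0.20 (limma adjusted p = 0.0312), and failed without PROLIF replicates 1 or 2 or any 1 DIFF library (0.0601 to 0.0852). A DIFF-only region lay 26.7 kb beyond the gene at chr8:88621411-88621687, nearest to the *Snx20* start site, with fold enrichments of 3.57, 4.04 and 3.42 and percentiles of 26.2, 21.8 and 31.5. It lost this pattern with lists of equal length, among the strongest 20000 peaks and, lying outside it, with a flank of 10 kb. The region with TCF/LEF letters 26.0 kb upstream was the strongest away from the start site, at percentiles 62.2 to 77.2 and a difference of 0.09 ± 0.13 (adjusted p = 0.722).

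*Axin2*, which encodes a scaffold of the complex that degrades β-catenin (ENSMUSG00000000142.15, chr11:108920349-108950783, plus strand), had 2 regions tested. Its start site region did not pass (above). The intergenic region 7.78 kb beyond the 3′ end, chr11:108958175-108958899, had fold enrichments of 7.84, 7.93 and 5.98 in PROLIF and 5.39, 3.79 and 3.42 in DIFF. It fell by 0.70 on the log2 scale (standard error 0.19, limma adjusted p = 0.0442), with differences of -0.14 and -1.11 within the lower and higher input numbers. It failed with the input range as a term (0.0864) and without PROLIF replicates 1, 2 or 4 or DIFF replicates 2 or 4 (0.0680 to 0.151).

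*Lgr5* (ENSMUSG00000020140.15, chr10:115450311-115587780, minus strand) lies in a part of chromosome 10 that stood apart in replicate 1. Within 1 Mb on each side of the gene, replicate 1 held 2.76 times the share of peaks of the other PROLIF replicates and 2.48 times that of the other DIFF replicates, where the other 9 genes gave 0.850 to 1.2. In the *Lgr5* window itself the PROLIF libraries had 12, 7 and 6 peaks and the DIFF libraries 7, 7 and 8, and 6 of its 16 regions were found in replicate 1 libraries only. None of its 4 regions tested passed, with differences of -0.34 to 0.06. The strongest lay in an intron at chr10:115468701-115469511, with fold enrichments of 14.6, 13.7 and 12.6 in PROLIF and 12.3, 14.1 and 15.8 in DIFF.

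The promoters of 55 other Wnt pathway genes were set beside those of the 10. A promoter peak was present in all 6 libraries at 6 of 9 ligand genes, 13 of 14 receptor genes, 8 of 8 transducers, 8 of 8 nuclear cofactors, 9 of 12 inhibitors and 2 of 4 further targets. *Wnt3a*, a canonical ligand, *Dkk3*, of the Dickkopf family, and *Cdx1*, an intestinal target, had no promoter peak in any library, and *Wnt3* had one in 1 DIFF library. For each gene the strongest promoter region shared by all 6 libraries was taken, and of these 45 regions 1 rose and 1 fell. Over all regions within 3 kb of a start site, weaker ones included, 7.68% changed, so the count does not exceed that background. A further shared promoter region, at *Tle2*, was lower in DIFF. *Dvl2*, which encodes a Dishevelled protein, rose by 0.52 ± 0.14 (limma adjusted p = 0.0385), and *Wnt8b* fell by 0.44 on the log2 scale (standard error 0.12, limma adjusted p = 0.0380). *Lrp5*, which encodes a Wnt co-receptor, had a difference of 0.43 ± 0.13 (adjusted p = 0.0615).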

How the data were processed

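ATAC-seq of 6 *Srr2* del/del libraries was used, 3 per state, grouped by the state and replicate number in the labels. The authors removed adapters (Cutadapt), trimmed (Trimmomatic), aligned to GRCm38 (Bowtie2), marked duplicates (Picard) and called narrow peaks per library with MACS2, without a model and at an FDR of 0.05. Versions, the transposase shift, read extension and blacklist are not given in the sources used here, and each can move peak edges. The deposited lists hold a score (10 times the −log10 q, cut to whole numbers), the fold enrichment (a ratio of the pileup to that library's local background), and each peak's −log10 p and −log10 q. The background pileup was solved with a pseudocount in both terms of this ratio, and its 1st percentile per library is given. Read totals were not used here.

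Peaks were merged by 1 bp of overlap, ranked within each list by −log10 p, and annotated with GENCODE M21 (GRCm38). Peaks up to 3 kb from a start site counted as promoter peaks. Over regions with a peak in all 6 libraries, log2 fold enrichment (largest peak per library, no further pseudocount) was quantile-normalised. It was tested with limma 3.58.1 in R 4.3.3, without covariates, with Benjamini-Hochberg adjustment over all these regions. Regions under the caller's threshold in any library are outside this test. On simulated data, the merging and the motif search returned the planted answers and the fit recovered most, not all, of the planted changes. Counts per library were compared by two-sided exact permutation. Motifs were searched within 100 bp of the summit on both strands of the reference, in Python 3.11.15 with pandas 2.3.3 and numpy 2.4.6.

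The study profiled both states on the same cultures, and the labels give both the numbers 1, 2 and 4, and an alternative fit therefore paired libraries by number. Deviations of same-numbered libraries correlated across regions at 0.0732, 0.122 and 0.105 for replicates 1, 2 and 4, and those of different numbers at -0.0922 to -0.00336.

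The genes, lists and tests were chosen with earlier results of these data known. All 10 genes are named, with their start site regions, every state-only region and every region past adjusted p 0.05. The strongest region away from the start site is named for most of them. The alternatives were q under 0.01, lists of equal length, the strongest 20000 peaks, flanks of 10 and 100 kb, a promoter of 1 kb, median centring, −log10 p in place of the ratio, pairs, and each library left out. The input data number as a term, and percentiles in lists of equal length, were added after seeing the data. 1 marker gene is not reported here.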

Additional observations from a re-analysis of the deposited data

How the results depend on the processing

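The 14 regions that passed kept their direction under all 11 alternatives, and 5 of them passed under each. The other 9 lost the call under at least 1, and in each case a left-out library was among them. Leaving out 1 library gave 2 to 8 Wnt gene regions higher and 3 to 6 lower in DIFF, and over all shared regions 1218 to 2051 higher and 1985 to 2563 lower. The fewest higher were found without DIFF replicate 4. With the input data number range as a term, an alternative added after seeing the data, 5 Wnt gene regions were lower. With the replicate block 13 of the 14 calls remained, 1 was lost and 1 was gained, both at *Tcf7l2*, and no other call among the 64 Wnt gene regions changed. All shared regions gave 2625 higher and 3402 lower with the block, against 2372 and 3097 without it.

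The difference in peaks per library kept its sign in every setting, at 0.667 to 19.7 peaks with 1 library left out, and at 8.67 with the replicate block (sign flips, exact p = 0.75). Using the strongest 20000 peaks left 21 regions shared by the 6 libraries, a flank of 10 kb left 37 and one of 100 kb gave 100, as fewer peaks or other windows were counted. With 1 library left out, which asks for a peak in fewer libraries, they numbered 64 to 70. Promoter peaks shared by the 6 libraries were found at 5 genes when only the strongest 20000 peaks counted. With any library left out they were found at 10, which was fixed in advance, since all 10 genes had one in every library. The replicate block gave 14 PROLIF-only and 17 DIFF-only regions, and leaving out 1 library gave 3 to 6 and 3 to 9. Both ask for fewer libraries. With lists of equal length the counts stayed at 2 PROLIF-only and 3 DIFF-only regions, although those at *Lef1* and *Nkd1* and the PROLIF-only one at *Tcf7l1* were no longer among them. The difference in median percentile went from 5.82 to 0.12 with lists of equal length, an alternative added after seeing the data. The effect of depth on weak peaks was not tested.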
